A study of Homo sapiens with 3 samples.

Results

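The genes described here encode small guanine nucleotide-binding (G) proteins and regulators of G protein signalling (RGS proteins), whose mRNAs are known as early responders to stimuli in many cell types. There were 9 genes: RASD1, GEM and RRAD of the RAS branch, RHOB, RND1 and RND3, which are related to RHOA, and RGS2, RGS4 and RGS16. They were chosen by name with earlier results of these arrays in view, and they comprise every probe set whose annotation gives one of these symbols alone. These were 9 of 19775 genes, read by 19 of the 41091 probe sets with 1 gene symbol. Because the values themselves had been seen when the genes were chosen, they are given as a description.

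Small G proteins are molecular switches that are active when bound to GTP. RASD1 is a RAS-like protein named for its induction by dexamethasone. GEM and RRAD belong to the RGK group, which binds the beta subunits of voltage-gated calcium channels and lowers calcium current. RHOB is an endosomal relative of RHOA with a short-lived mRNA, and the RND proteins stay bound to GTP and oppose RHOA by way of p190 RhoGAP. RGS proteins speed up GTP hydrolysis on the alpha subunits of heterotrimeric G proteins and so shorten signals from receptors coupled to them.

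Expression was measured on whole-genome Affymetrix arrays in SKBR3, an established human breast cancer cell line with ERBB2 amplification that is known for lacking oestrogen receptor α. Cells were kept for 4 h in 10% serum that had been stripped with charcoal to remove steroid hormones, and then for 3 h with 0.1% ethanol (the vehicle), with 1 µM estradiol, or with the synthetic peptide ERα17p at 1 µM, whose residues come from oestrogen receptor α. There was 1 array per condition and so no replicate, no error and no test for any difference. The ethanol share is recorded for the vehicle alone, so that of the estradiol culture is not known here. No label gives the solvent of the peptide, which is therefore not known here either. All conditions share the cell line, the stripped serum and the times.

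The deposited values are log2 distances from a per-probe-set baseline, which the authors had removed. Differences between arrays can be read from them, whereas expression levels, and comparisons of level between genes, cannot. It is therefore unknown for every gene here whether its signal stood above background, and the cell line's defining markers could not be checked by level. Of the 7 luminal and ERBB2 markers and the 8 measured markers of other cell types, 0 differed by 1.5-fold in any comparison, where 3.74% of all genes did with estradiol, 2.73% with ERα17p and 0.354% between the treated arrays. Values spread more widely on the array labelled vehicle (standard deviation over all probe sets 0.27) than with estradiol (0.12) or ERα17p (0.13). In ACTB the 3′ probes exceed the 5′ probes where RNA is degraded. Its deposited 3′ value minus its 5′ value came to 0.30 for vehicle, 0.02 for estradiol and -0.04 for ERα17p. For GAPDH it was 0.05, 0.01 and -0.03 in the same order. Each of these control probe sets had its own baseline removed. The numbers can therefore be compared between arrays, but they do not show how intact the RNA of any array was. The part of these features of the vehicle array in the differences below was not tested. A probe set or gene is called lower or higher where 2 arrays differed by 1.5-fold or more, which is 0.58 in log2 units.

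Promoter sequences are shown for the genes that were lower together on both treated arrays, so that the letters next to their start sites can be compared. They are the 250 bases before the annotated start, 5′ to 3′ on the gene's strand, from RefSeq on GRCh38.p14. In all, 6 of the 9 genes matched an entry used here. RND1 and RRAD had no match, and GEM is not shown. Capitals mark matches, on either strand, to the cAMP response element (CRE) half-site TGACG, which is contained in the full CRE TGACGTCA, to the CArG box bound by serum response factor, to the TATA box TATAAA, to AP-1 sites (TGANTCA), to E-boxes (CACGTG) and to the NF-kB motif. For RND3 the upstream of its 2 annotated starts is shown.
RASD1 (chr17:17496396-17496645, minus strand): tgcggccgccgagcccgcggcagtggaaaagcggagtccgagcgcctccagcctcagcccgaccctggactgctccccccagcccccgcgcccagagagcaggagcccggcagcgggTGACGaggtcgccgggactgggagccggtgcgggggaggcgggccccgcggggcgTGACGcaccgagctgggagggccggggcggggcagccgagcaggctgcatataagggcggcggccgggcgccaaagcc
RND3 (chr2:150487696-150487945, minus strand): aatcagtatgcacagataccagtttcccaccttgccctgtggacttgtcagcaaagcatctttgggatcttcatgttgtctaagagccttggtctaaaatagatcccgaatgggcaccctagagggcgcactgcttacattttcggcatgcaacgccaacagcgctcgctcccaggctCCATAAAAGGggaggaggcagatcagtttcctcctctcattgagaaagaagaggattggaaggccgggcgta
RGS2 (chr1:192808789-192809038, plus strand): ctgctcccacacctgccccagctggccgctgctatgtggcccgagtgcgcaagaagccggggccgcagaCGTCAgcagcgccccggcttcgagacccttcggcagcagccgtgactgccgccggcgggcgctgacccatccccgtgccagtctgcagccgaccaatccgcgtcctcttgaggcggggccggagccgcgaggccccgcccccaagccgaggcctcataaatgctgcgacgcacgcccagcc
RGS16 (chr1:182604390-182604639, minus strand): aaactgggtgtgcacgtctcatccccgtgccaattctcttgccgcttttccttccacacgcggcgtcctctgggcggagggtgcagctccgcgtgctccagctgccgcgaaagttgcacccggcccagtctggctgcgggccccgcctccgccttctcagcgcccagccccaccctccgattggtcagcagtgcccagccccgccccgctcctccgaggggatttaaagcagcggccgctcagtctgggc

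RASD1 had 2 CRE half-sites, at -133 and -78 from the start, and RGS2 had 1 at -181. Of the members that were not lower, RHOB also had 1, at -161. RGS4 has 4 annotated starts and had 1, at -32 or -139, in only some of their windows. In this way 2 of 4 lower genes and 4 of all 6 matched genes had one. Such a half-site was present in 21.2% of 35116 RefSeq promoter windows of the same length. A gene was counted where the window of any annotated start matched, whereas this share and those below are per single window. RND3 had a CArG box, a motif held by 1.16% of windows, at -72 from its upstream start and -100 from its downstream start. Only the window of the downstream start also had a TATA box, at -30, held by 10.7%. RGS4 had a TATA box at -30 as well, but not with every annotated start. No letters of the searched motifs were found in the RGS16 window. AP-1 sites, E-boxes, NF-kB motifs and full CREs were found in 0 of these 4 genes, and in 6.57%, 6.34%, 5.21% and 1.65% of all windows. These are matches of letters, not sites of binding.

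**Figure D1:**
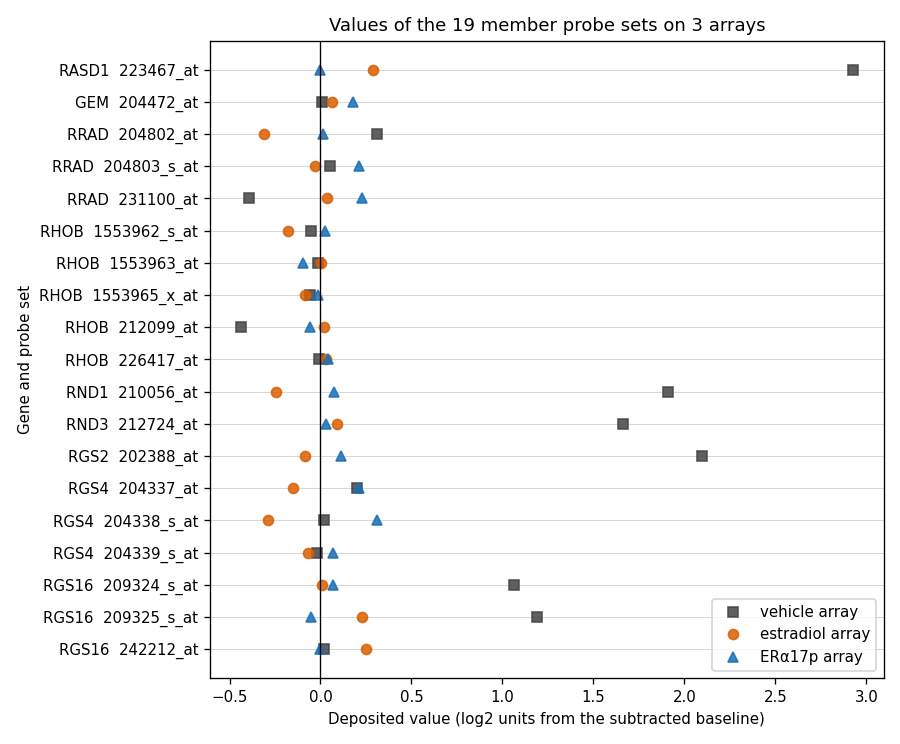
Deposited values (log2 units from the authors' baseline, horizontal axis) of the 19 probe sets on the array labelled vehicle (squares), the estradiol array (circles) and the ERα17p array (triangles), 1 array each. RASD1, RND1, RND3, RGS2 and 2 probe sets of RGS16 lie between 1.06 and 2.93 on the array labelled vehicle, whereas every probe set lies between -0.31 and 0.31 on both treated arrays.

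On the array labelled vehicle, 5 of the 9 genes exceeded the baseline by 1.5-fold or more, as did 2.35% of all genes, and these 5 were lower on both treated arrays. In RNA from a whole culture, less RNA per cell cannot be told apart from fewer cells that make it. They were RASD1, RND1, RND3, RGS2 and RGS16, so that each family had at least 1. The other 4 genes, GEM, RRAD, RHOB and RGS4, did not pass 1.5-fold as genes (the median over a gene's probe sets) in any comparison. Over the 12 probe sets of these 4 genes, values ran from -0.44 to 0.31 on the array labelled vehicle, from -0.31 to 0.06 with estradiol and from -0.10 to 0.31 with ERα17p.

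In the comparison of estradiol with vehicle, 7 of the 19 probe sets were lower and 0 higher. Among all probe sets with 1 symbol, 3.71% were lower and 1.38% higher. The median over the 19 probe sets was -0.13, against 0.02 over all. By gene, 5 of 9 were lower, where 2.93% of 19775 genes were lower. With ERα17p against vehicle, 6 probe sets were lower and 1 higher, against 2.76% and 0.886% of all, and the median was 0.01 beside 0.03 over all (-0.01 with each array centred on its median, and -0.05 without probe sets ending in _s_at or _x_at). The same 5 genes were lower, where 2.14% of all genes were. The genes were chosen on these same comparisons, so nothing is read from the shares. Both comparisons use the same vehicle array and are given side by side, not as separate evidence.

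These counts depend on the array used as reference. With the authors' baseline in its place, 0 of 19 probe sets were lower or higher with estradiol, where 0.056% of all lay below and 0.0268% above. With ERα17p it was also 0 of 19, where 0.0292% lay below and 0.0535% above. In 3979 of all probe sets (7.28%), 2 of these arrays lay equally far on either side of that baseline, so these arrays contributed to it there. Their part in the baseline of other probe sets, among them all 19, is not known. The counts of 0 therefore do not place the differences on the vehicle array. Dividing each array by its median absolute deviation, which shrinks the wide vehicle array, left 5 probe sets lower in each comparison with it and reduced the differences of the 5 genes. RASD1 then had -1.44 with estradiol and -1.78 with ERα17p, RND1 -1.45 and -1.08, RND3 -0.90 and -0.98, RGS2 -1.37 and -1.16, and RGS16 -0.38 and -0.65, so that RGS16 no longer passed 1.5-fold with estradiol.

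Among the RAS-branch genes, RASD1 differed most of all 9. Its only probe set, 223467_at, read 2.93 on the array labelled vehicle, 0.29 with estradiol and -0.00 with ERα17p. The vehicle array was high and both treated arrays lay close to the baseline. RASD1 was lower by -2.64 log2 units with estradiol (6.24-fold), the 16th lowest difference of 19775 genes, and by -2.93 with ERα17p (7.62-fold), the 10th lowest. Among genes with at least 2 probe sets, the pattern over the 3 arrays was closest, by Euclidean distance, in PPP1R15A, a stress-induced phosphatase subunit (0.36 log2 units), followed by the chemokine gene CX3CL1 (0.55) and the pro-apoptotic gene PMAIP1 (0.61). Likeness over 3 arrays is a description of these arrays alone.

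GEM had 1 probe set, 204472_at, with values of 0.01 on the array labelled vehicle, 0.06 with estradiol and 0.18 with ERα17p. The 3 arrays lay close together, and GEM differed from vehicle by 0.06 and 0.17 log2 units.

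RRAD, the other RGK gene, had 3 probe sets that disagreed. Probe set 204802_at read 0.31 on the array labelled vehicle, -0.31 with estradiol and 0.01 with ERα17p, and was lower with estradiol by -0.62 (1.54-fold). Probe set 231100_at ran the other way, with -0.39, 0.03 and 0.23 in the same order, and was higher with ERα17p by 0.62 (1.54-fold). The third, 204803_s_at, read 0.05, -0.03 and 0.21, and did not pass 1.5-fold. The vehicle array was thus the highest of the 3 in one RRAD probe set and the lowest in another, and the gene's median differences from it were -0.08 with estradiol and 0.16 with ERα17p.

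**Figure D2:**
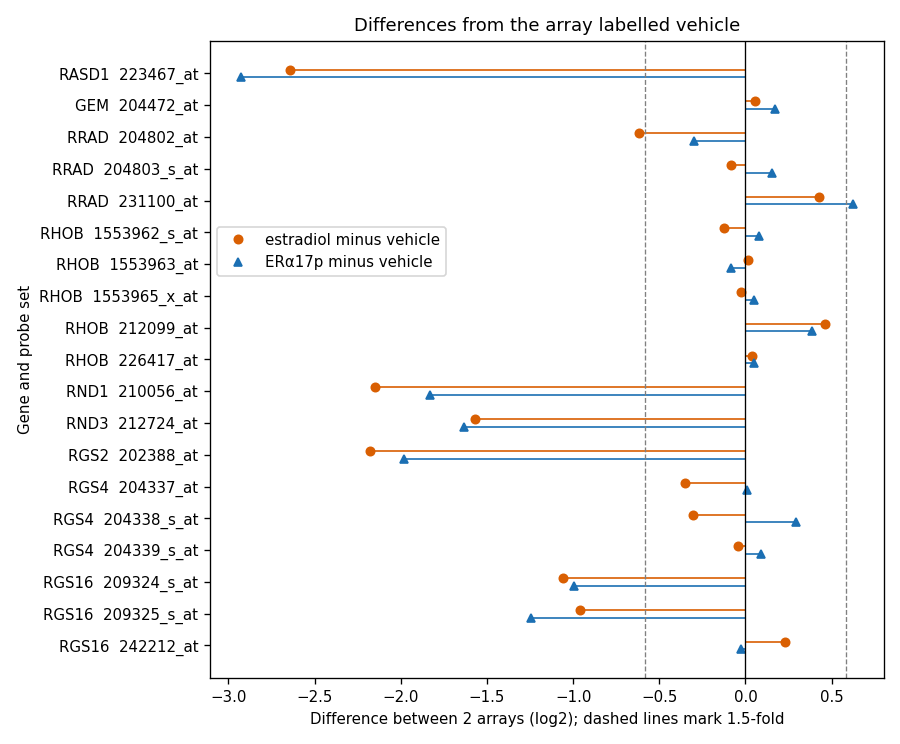
Difference of the estradiol array (circles) and of the ERα17p array (triangles) from the array labelled vehicle, in log2 units, for each of the 19 probe sets, with dashed lines at 1.5-fold. RASD1, RND1, RND3, RGS2 and 2 of 3 probe sets of RGS16 lie left of the lower line in both comparisons, and the 3 probe sets of RRAD spread on both sides of 0.

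Among the RHOA-type genes the RND genes stood apart from RHOB. RND1, read by 210056_at, had 1.91 on the array labelled vehicle, -0.24 with estradiol and 0.08 with ERα17p. It was lower by -2.15 log2 units with estradiol (4.44-fold) and by -1.83 with ERα17p (3.56-fold). RND3, read by 212724_at, had 1.66, 0.09 and 0.03 in the same order. It was lower by -1.57 (2.97-fold) and -1.63 (3.10-fold). For both RND genes the vehicle array was high and both treated arrays lay near the baseline, the ranks being 30th and 71st lowest of all genes with estradiol and 37th and 46th with ERα17p.

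RHOB had 5 probe sets, of which 0 passed 1.5-fold in any comparison. Probe set 212099_at read -0.44 on the array labelled vehicle, 0.02 with estradiol and -0.05 with ERα17p, and so differed by 0.46 and 0.38 log2 units in the direction opposite to the RND genes. In the other four RHOB probe sets the differences ran from -0.13 to 0.04 with estradiol and from -0.08 to 0.08 with ERα17p. The gene's median difference was 0.05 and 0.04.

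Among the RGS genes, RGS2, which acts preferentially on the Gq class, was read by 202388_at, with 2.10 on the array labelled vehicle, -0.08 with estradiol and 0.11 with ERα17p. It was lower by -2.18 log2 units with estradiol (4.53-fold, 29th lowest of all genes) and by -1.98 with ERα17p (3.95-fold, 31st lowest). Its pattern was closest in IRS2, an insulin receptor substrate gene (distance 0.12), the stress transcription factor gene ATF3 (0.18) and the adhesion molecule gene ICAM1 (0.22). These 3 rest on medians over probe sets that differ widely, since on the array labelled vehicle those of ATF3 ran from 0.00 to 3.45, those of ICAM1 from 0.17 to 3.43 and those of IRS2 from 1.59 to 2.58.

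RGS16, which acts on the Gi and Gq classes, had 3 probe sets. On the array labelled vehicle, with estradiol and with ERα17p, 209324_s_at read 1.06, 0.01 and 0.07. In the same order, 209325_s_at read 1.19, 0.23 and -0.05. Both were high on the array labelled vehicle, with differences of -1.06 and -0.96 log2 units with estradiol and -0.99 and -1.24 with ERα17p. The third, 242212_at, read 0.02, 0.25 and -0.00, and differed by 0.23 and -0.02. The median made RGS16 lower by -0.83 with estradiol (1.78-fold) and -1.06 with ERα17p (2.09-fold). Both probe sets that carry this call end in _s_at, a suffix for probes that can match several transcripts. Without such probe sets only 242212_at is left, and RGS16 is no longer lower (0.23 and -0.02).

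RGS4, which acts on the Gi and Gq classes as well, was not part of this pattern. Its 3 probe sets read from -0.02 to 0.20 on the array labelled vehicle, from -0.29 to -0.07 with estradiol and from 0.07 to 0.31 with ERα17p. The estradiol array was the lowest of the 3 in every RGS4 probe set. Differences from vehicle ran from -0.35 to -0.05 with estradiol and from 0.01 to 0.29 with ERα17p.

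**Figure D3:**
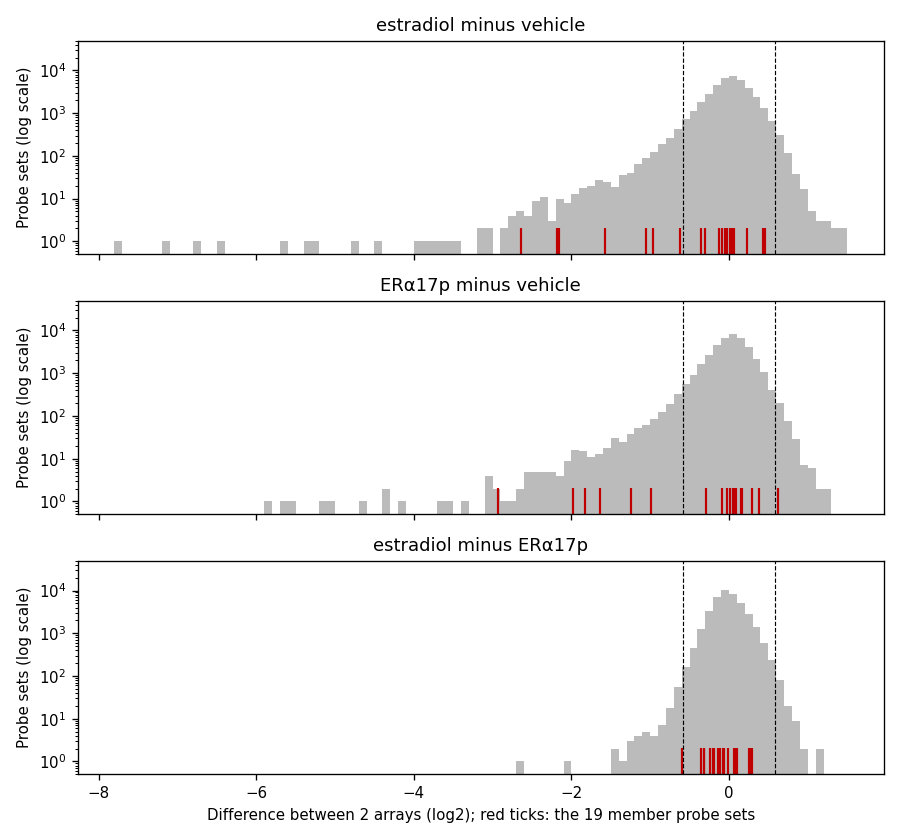
Number of probe sets with 1 gene symbol (log scale) by difference between 2 arrays, in bins of log2 units, for the 3 comparisons, with dashed lines at 1.5-fold and red ticks for the 19 probe sets. In the comparisons with vehicle, 7 and 6 ticks lie left of the lower line, and in estradiol minus ERα17p 1 does.

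Estradiol was then compared with ERα17p directly, which leaves the vehicle array out. Here 1 of 19 probe sets was lower and 0 higher, against 0.29% and 0.314% of all probe sets, and 0 of 9 genes passed 1.5-fold, where 0.354% of all genes did. The median over the 19 probe sets was -0.11, against -0.02 over all. The probe set that passed was 204338_s_at of RGS4, which read -0.29 with estradiol and 0.31 with ERα17p, a difference of -0.60 (1.51-fold). The other RGS4 probe sets differed by -0.36 and -0.14, so that all 3 lay lower with estradiol and the gene's median was -0.36. RRAD also lay below 0 in 3 of 3 probe sets, from -0.32 to -0.20, without passing 1.5-fold. Of all probe sets with 1 symbol, 54.6% lay below 0 here. Probe sets of 1 gene read the same 2 arrays, so their shared sign is not separate evidence.

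The 5 genes that were lower against vehicle did not pass 1.5-fold between the treated arrays. The difference was 0.29 log2 units for RASD1, 0.23 for RGS16, 0.06 for RND3, -0.20 for RGS2 and -0.32 for RND1. Their signs were mixed. Of all 19775 genes, RND1 was the 486th lowest and RGS2 the 1797th lowest in this comparison, whereas RASD1 and RGS16 lay near the high end, at places 18983 and 18422 from the lowest. The standard deviation of this difference over all genes was 0.16, which 4 of the 5 exceeded and which is a spread among genes and not between replicates.

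The relatives of these genes were described from lists chosen by family membership. Of 62 listed members of the RAS branch, the RHOA-type genes and the RGS family, 58 were measured. With estradiol against vehicle 0 of the 58 were lower or higher, where 3.74% of all genes were, with a median of 0.03 beside 0.03 over all genes. With ERα17p 0 were lower and 1 was higher (median 0.05 beside 0.03), where 2.73% of all genes were either. Between the treated arrays 0 of 58 and 0.354% of all genes passed. The 1 higher gene was RHOBTB3, an atypical member that encodes an ATPase, which read -0.40 on the array labelled vehicle, -0.07 with estradiol and 0.22 with ERα17p and was higher by 0.62 with the peptide. All 6 of its probe sets lay above 0 in that comparison, from 0.40 to 0.68, where 44.1% of all probe sets lay below 0. Of the relatives' 154 probe sets, 3 were lower and 1 higher with estradiol (RALA, RAP2C, RGS12 and RHOU), against 3.71% and 1.38% of all. With ERα17p 1 was lower and 7 were higher (RAP1A, RAP2C, RGS12, RHOBTB3, RHOF and RND2), against 2.76% and 0.886%. Between the treated arrays 0 passed. RND2 differed by 0.34 with estradiol and 0.56 with ERα17p, opposite to RND1 and RND3.

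Closest to the limit on the low side was RAP2C, a RAP-type RAS relative, with -0.56 with estradiol and -0.54 with ERα17p. Its 2 probe sets differed by -0.66 and -0.46 with estradiol. RHOU, an atypical CDC42-like gene, had the widest difference of the RHOA-type relatives with estradiol, -0.39, with probe sets at -0.63 and -0.14. Among RGS relatives the widest were RGS9 with estradiol (0.53) and RGS22 with ERα17p (0.41). Between the treated arrays the widest difference in each of the 3 lists was that of RASL10A (0.49) for the RAS branch, of the RAC-type gene RAC3 (-0.43) for the RHOA-type genes and of RGS18 (0.33) for the RGS family.

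Of the partners of these proteins, 0 of 39 genes passed 1.5-fold in any comparison, where 3.74%, 2.73% and 0.354% of all genes did, so that the count says little about them. They comprised 13 G protein alpha subunit genes, 13 measured RHOA effectors and RND partners and 13 measured calcium channel subunit genes. GNAI1, a Gi alpha subunit gene, came nearest, with -0.43 with estradiol and -0.58 with ERα17p. Its 2 probe sets differed by -0.55 and -0.60 with the peptide, the second of which is past 1.5-fold. Of the 128 partner probe sets, 1 was lower and 2 were higher with estradiol (those of ARHGAP5, CACNA1A and CACNA1H). Among all probe sets with 1 symbol, 3.71% were lower and 1.38% higher. With ERα17p 2 were lower (GNAI1 and GNAS), against 2.76% of all. Between the treated arrays 1 was higher, that of CACNA1A (0.89), against 0.314% of all. Nothing is read from these counts about the partners. ARHGAP35, which encodes p190 RhoGAP, differed by 0.40 with estradiol and 0.39 with ERα17p. Its 5 probe sets ran from -0.13 to 0.55 with estradiol and from 0.20 to 0.42 with ERα17p. ARHGAP5 went the other way, with -0.18 and -0.13. Of the calcium channel genes, CACNA1S differed most with estradiol (0.37) and CACNA1F with ERα17p (0.34). Between the treated arrays the widest gene difference in each list was -0.16 for GNA12 among the alpha subunits, -0.16 for the formin gene DIAPH3 among effectors and 0.29 for CACNA1S among channel subunits.

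**Figure D4:**
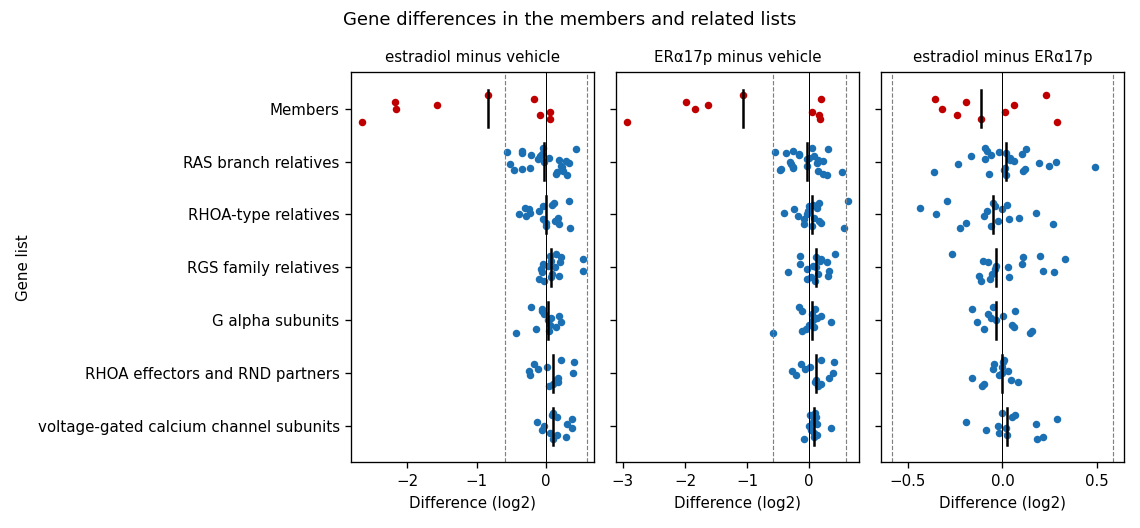
Difference between 2 arrays (log2 units) of each gene, taken as the median over its probe sets, for the 9 genes described here (red) and 6 related lists (blue), with black bars at list medians and dashed lines at 1.5-fold. In both comparisons with vehicle 5 red points lie left of the lower line, and of the 97 listed genes 1, RHOBTB3 with ERα17p, lies outside the lines.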

How the data were processed

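Total RNA of SKBR3 cells was hybridised to 3 arrays, 1 per labelled group. The authors used RMA, per the submitters' processing notes, and no source names its version. The deposited values were taken to be log2, the scale RMA gives. They are centred: array medians were -0.02, -0.00 and 0.00, and in 3979 probe sets (7.28%) a pair of arrays held mirror-image values around 0 (tolerance 1e-06, values over 0.001). No source used here names the arrays behind that baseline.

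Symbols came from the platform annotation and were checked by Entrez ID against the RefSeq gene table of GRCh38.p14 (41037 of 41091 matched, 0 symbols changed). Those with several symbols (1801) or none (11721), and 62 controls, were left out. No filter on low values was possible. Genes were summarised by the median of their probe sets. Differences between arrays were counted by a size rule of 1.5-fold, with Python 3.11.15, pandas 2.3.3 and numpy 2.4.6. The rule was run on simulated data with known differences. That checks the calculation only and cannot show whether a difference here exceeds the noise between arrays. Genes named besides the 9 were, per related list and comparison, those past 1.5-fold (at most 4) or otherwise the widest 1, and the 3 genes nearest to each of the 2 members with the widest mean difference from vehicle. Related genes with a probe set past 1.5-fold were named as well. The 9 genes and the lists were chosen with earlier results of these data known. Alternatives changed the scaling, the probe sets, the gene summary, the reference and the size rule.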

Additional observations from a re-analysis of the deposited data

How the results depend on the processing

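With the authors' baseline in place of the array labelled vehicle, the 7 lower probe sets with estradiol became 0, and the 6 lower and 1 higher with ERα17p became 0 and 0. The differences then turned sign for RASD1 (0.29), RND3 (0.093) and RGS16 (0.23) with estradiol, and for RND1 (0.076), RND3 (0.032) and RGS2 (0.11) with ERα17p, all of them under 1.5-fold. RHOB with ERα17p, not called before, turned from 0.04 to -0.01, and the estradiol median over the 19 probe sets from -0.13 to 0.00. Without probe sets ending in _s_at or _x_at, RGS16 turned to 0.23 with estradiol, since 242212_at alone is left, and the 1 lower probe set in estradiol minus ERα17p became 0. That count was also 0 at 2-fold. The 1 higher probe set with ERα17p became 0 at 2-fold and 0 with arrays divided by their median absolute deviation. That scaling shrank the vehicle array and left 5 probe sets lower in each comparison with vehicle, with RASD1 at -1.44 and -1.78 and RGS16 at -0.38 and -0.65. Centring each array on its median left all 27 gene differences within 0.16 log2 units, the spread over genes between the treated arrays, of their values. Signal over background is unknown and 1 array per group limits the precision. No paired analysis was possible because each group has 1 array.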
